A study of Mus musculus with 8 samples.

Results

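The set examined here comprised 37 mouse genes whose products copy DNA, out of 23420 gene symbols counted in polyadenylated RNA of uterine stromal cells. Members were chosen by gene symbol from a list of replication genes, drawn up with earlier results of these data known but with no threshold on measured values, and all 37 were present in the count tables. They were grouped by role into 4 origin licensing genes, 6 subunits of the replicative helicase, 5 genes that activate the helicase, 7 polymerase and primase subunits, 5 genes of the sliding clamp and its loader, 3 genes for binding single strands and for joining fragments, 4 genes of nucleotide supply and 3 genes that copy chromatin. The libraries carried either the genotype label Erbb3f/f (4 libraries) or the genotype label Erbb3d/d (4 libraries), and all were labelled day 3. By convention, f stands for a floxed and d for a Cre-deleted allele. The labels do not spell this out, name no Cre line, strain or age, and do not say what day 3 is counted from or whether the replicates came from separate animals, so p-values measure the spread between these libraries.

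DNA replication starts when the origin recognition complex, Cdc6 and Cdt1 load the Mcm2 to Mcm7 ring onto DNA in the G1 phase. Mcm10, Cdc45 and the GINS complex then turn the ring into an active helicase, and polymerases, the Pcna clamp, ligase and nucleotide-making enzymes follow the fork through S phase. Many of these genes are transcribed as cells enter S phase under control of E2F factors, and their transcripts are widely used as a readout of dividing cells. In the mouse uterus, stromal cells are known to divide in early pregnancy under progesterone and oestrogen.

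Reads assigned to genes numbered 8578575 to 12854367 per library, and 6182 to 15079 of them, or 0.0684% to 0.118%, fell on the 37 genes. Levels are in CPM, read counts scaled to library size with trimmed mean of M values (TMM) factors. The targeted gene Erbb3, a receptor tyrosine kinase, had 7.40 to 12.3 CPM in the libraries labelled Erbb3f/f and 7.37 to 17.7 CPM in those labelled Erbb3d/d (log2 fold change of the Erbb3d/d over the Erbb3f/f label 0.53, SE 0.28, edgeR quasi-likelihood adjusted p = 0.485). It was not lower under the Erbb3d/d label, and a count over the whole gene cannot show whether an exon is missing, so groups are named by their labels throughout. The 12 stromal markers summed to 11337 to 16802 CPM per library, with none of them under 171 CPM in any library. Markers of other cells were also read in every library, with summed levels of 1102 to 2930 CPM for 16 epithelial, 1827 to 6118 CPM for 11 smooth muscle, 249 to 551 CPM for 11 endothelial and 1160 to 2757 CPM for 11 immune markers.

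No replication gene passed the test between the labels. Of the 37 members, 36 had enough reads to test, and edgeR called 0 of them after adjustment (threshold 0.05), as it called 0% of all 14598 genes tested. The smallest adjusted p of a member was 0.296, for Cdc6. At an unadjusted p under 0.05, 3 members (Cdc6, Mcm10 and Fen1) were higher under the Erbb3d/d label, against 6.64% of all genes tested, and 0 were lower, against 4.97%. DESeq2 called 0 members after adjustment and 1.62% of its genes. Its smallest adjusted p of a member was 0.0575, again for Cdc6 and close to the threshold. At an unadjusted p under 0.05 it had 4 members higher, Uhrf1 being the addition, beside 6.33% of genes. In bulk RNA, fewer cells of a type and less RNA per cell cannot be told apart. The median log2 fold change over the tested members was 0.16, beside -0.01 over all genes tested. The log2 fold change was above 0 for 27 members and below 0 for 9, beside 48% of all genes tested above 0. For 23 of the 36 members it lay within 0.25 of 0, and for 3 it exceeded a 1.5-fold change.

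The spread between libraries was larger under the Erbb3d/d label, though the libraries labelled Erbb3f/f also varied. The mean log2(CPM + 0.5) over the 37 genes was 3.84, 4.06, 3.64 and 3.87 in the libraries labelled Erbb3f/f, replicates 1 to 4, and 3.81, 3.65, 4.34 and 4.19 in those labelled Erbb3d/d, replicates 1 to 4. Replicates 3 and 4 of the Erbb3d/d label were the highest of the 8 libraries, while replicates 1 and 2 fell inside the range of the Erbb3f/f label. The group means were 3.85 ± 0.174 and 3.998 ± 0.323 (SD, n = 4 each), a difference of 0.15 that is smaller than either SD. Erbb3d/d replicate 3 was the highest library for 22 of the 37 genes and replicate 4 for 3. Both together were the top pair for 17 members (45.9%), a count made after the values were seen, beside 11.1% of all genes tested. The Erbb3f/f label also had its extremes, with replicate 3 the lowest library for 14 members and replicate 2 the highest for 5. For 33 members (89.2%), Erbb3d/d replicates 1 and 2 both stayed below the highest library labelled Erbb3f/f, beside 67.8% of all genes tested, and the standard deviation of log2(CPM + 0.5) was larger under the Erbb3d/d label for 26 members (70.3%), beside 57.2% of all genes tested. No member had 4 values of either label wholly above the 4 of the other, beside 5.04% of all genes tested.

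**Figure D1:**
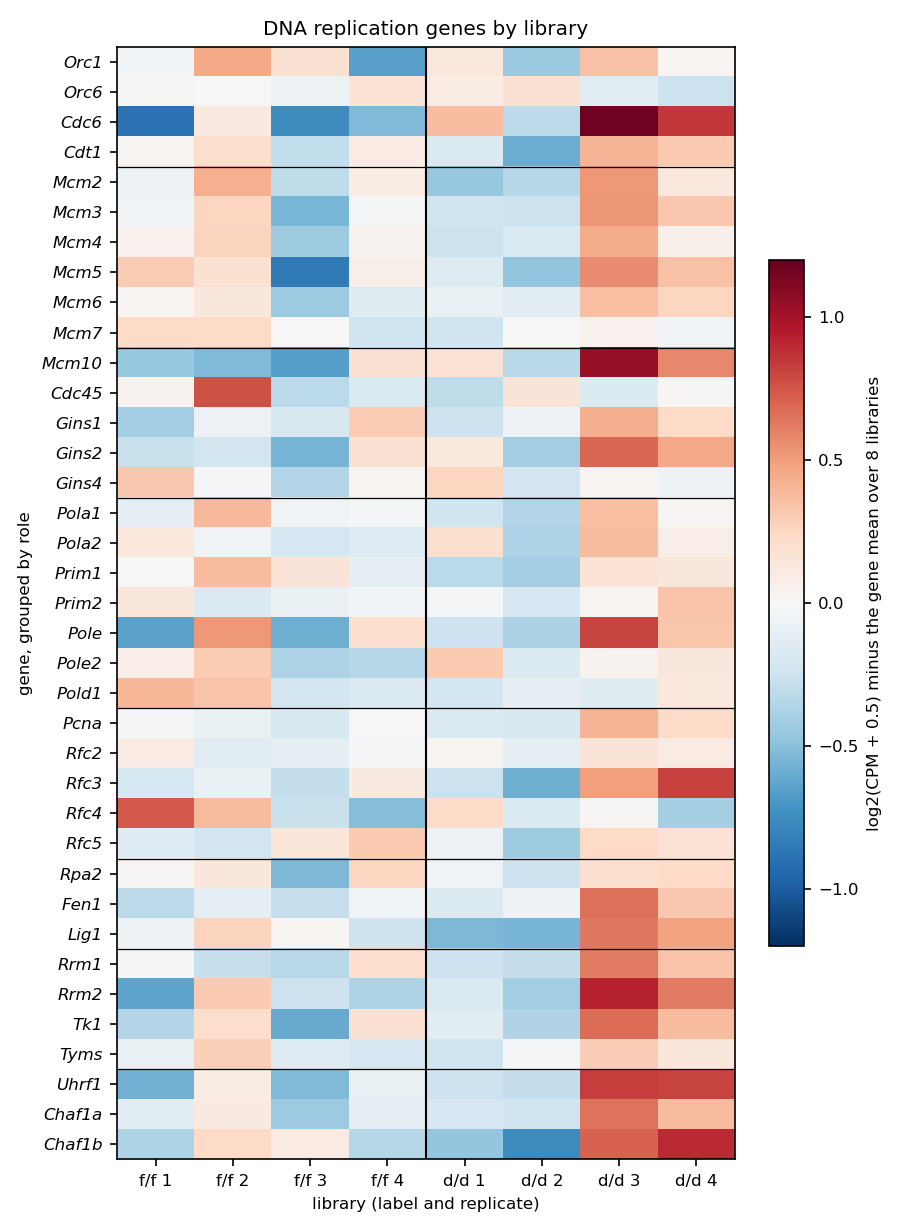
Heat map of the 37 DNA replication genes (rows, grouped by role) in the 8 libraries (columns, f/f and d/d with replicate number). Colour is log2(CPM + 0.5) minus the mean of that gene over the 8 libraries. The d/d replicate 3 column is the highest in 22 of 37 rows, and d/d replicates 3 and 4 are the 2 highest in 17.

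Leaving out libraries moved these values in opposite directions. Erbb3d/d replicates 3 and 4 were left out as a pair because they were known to stand apart. As they were the highest libraries on average for the members, removing them had to lower the average fold change, though not that of each member. The values without them are a description, not a test. Without Erbb3d/d replicates 3 and 4, the median log2 fold change of the members was -0.14, 9 of 37 tested members were above 0 and 28 below, beside 47.8% of genes above 0, and the difference in mean log2(CPM + 0.5) was -0.12. In that comparison of 4 with 2 libraries, Mcm2 was the single member with an unadjusted p under 0.05 (log2 fold change -0.46, SE 0.19, edgeR adjusted p = 0.999), beside 1.65% of genes that were lower, and 0 members were higher, beside 3.01%. Mcm2, Pola1, Prim1, Lig1 and Chaf1b then lay wholly below the Erbb3f/f label, beside 5.71% of genes tested. Without Erbb3d/d replicate 2, by contrast, the median was 0.27, 7 members were higher at an unadjusted p under 0.05 beside 9.97% of genes tested, and Cdc6 was called (log2 fold change 1.36, SE 0.29, edgeR adjusted p = 0.0457), where 0.968% of genes were called higher. Cdc6 also lay wholly above the other label there, as did 7.15% of genes. The same held for Cdc6 without Erbb3f/f replicate 2, beside 4.27% of genes, and for Mcm10 without Erbb3f/f replicate 4, beside 4.79%. Without Erbb3d/d replicate 3 alone the median was 0.03, and without replicate 4 alone it was 0.07.

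**Figure D2:**
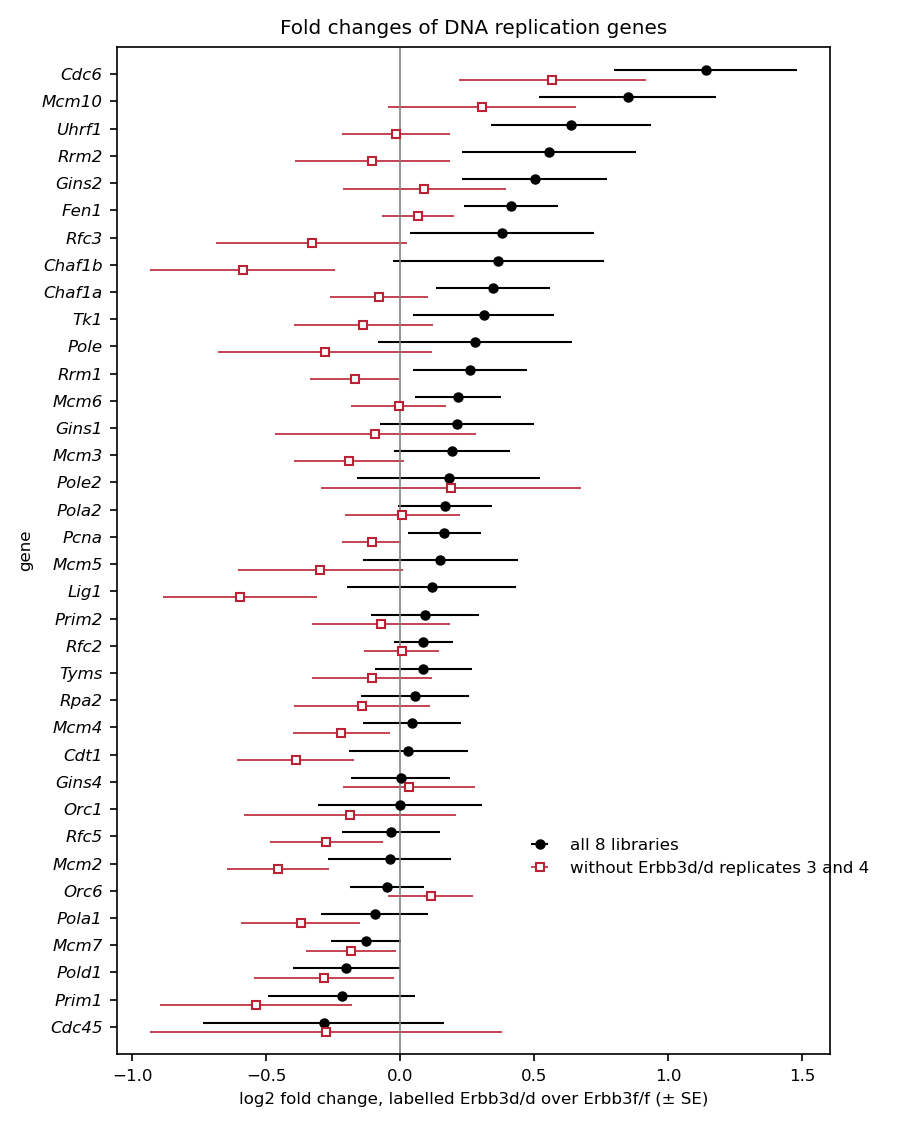
Log2 fold change (x axis, libraries labelled Erbb3d/d over Erbb3f/f, bars ± SE) of the 36 tested DNA replication genes (y axis), from all 8 libraries (filled circles) and without Erbb3d/d replicates 3 and 4 (open squares). Circles run from -0.29 for Cdc45 to 1.14 for Cdc6, and most squares lie to the left of their circle.

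Markers of other cells and other cell cycle genes were uneven over the same libraries. The 16 epithelial markers summed to 1580, 1380, 1102 and 1801 CPM in the libraries labelled Erbb3f/f and to 1743, 1741, 2930 and 2927 CPM in those labelled Erbb3d/d, replicates 1 to 4. Thus the same 2 libraries, Erbb3d/d replicates 3 and 4, were highest for epithelial markers, of which 14 of 16 had a log2 fold change above 0, 13 had an unadjusted p under 0.05 and none was at 0 in every library. None of the 16 was called by edgeR after adjustment (smallest adjusted p 0.279), and the 13 stand beside 6.64% of all genes tested that were higher. The 12 stromal markers summed to 14927, 13433, 14827 and 16802 CPM under the Erbb3f/f label and to 15535, 14199, 13813 and 11337 CPM under the Erbb3d/d label. Erbb3d/d replicate 4 had the lowest stromal sum of the 8 libraries and Erbb3f/f replicate 2 the next. By mean log2(CPM + 0.5), Erbb3d/d replicates 4 and 3 were the 2 lowest, at 9.46 and 9.64, beside 9.84 to 10.04 in the other libraries. Of the 12 stromal markers, 9 had a log2 fold change below 0, 5 of them with an unadjusted p under 0.05 beside 4.97% of all genes tested, and 0 were called after adjustment. Smooth muscle markers had the largest median log2 fold change of the 5 marker lists, 1.06, with 0 called after adjustment (smallest adjusted p 0.217 in edgeR). Of the 11, 10 were higher at an unadjusted p under 0.05, beside 6.64% of all genes tested. Their sums took another order, with 6118, 3334, 2932 and 3780 CPM in the libraries labelled Erbb3d/d and 1827 to 3034 CPM under the other label. Wholly above the Erbb3f/f label lay 3 smooth muscle and 4 epithelial markers, and wholly below it 2 stromal markers. No endothelial or immune marker was apart, and 5.04% of all genes tested were apart in either direction. The part of epithelial, stromal or smooth muscle RNA in the replication values was not tested. A list of 25 mitosis genes, such as the kinase Plk1 and the cyclin gene Ccnb2, had a mean log2(CPM + 0.5) of 3.40 to 4.24 under the Erbb3f/f label and of 3.88, 3.81, 4.82 and 4.86 under the Erbb3d/d label. All 25 mitosis genes had a log2 fold change above 0, with a median of 0.61, beside 48% of all genes tested above 0. At an unadjusted p under 0.05, 8 were higher, beside 6.64% of all genes tested, but 0 were called by edgeR after adjustment. Of the 25, 1 lay wholly above the Erbb3f/f label, beside the 5.04% of genes apart in either direction. Mitosis genes thus showed the same pair of high libraries as replication genes, with a larger median. The difference between the lists was not tested.

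**Figure D3:**
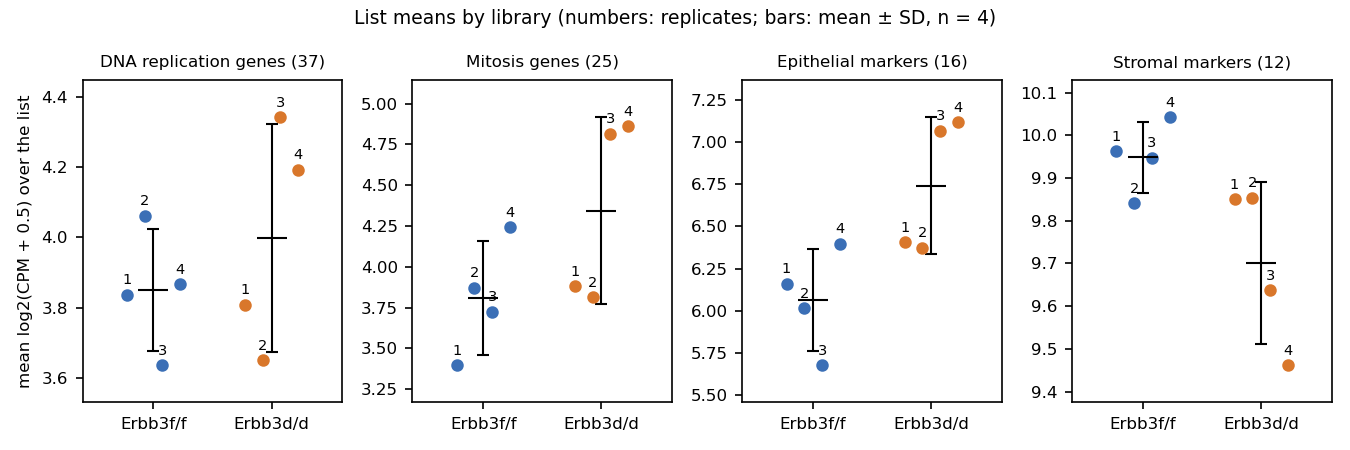
Mean log2(CPM + 0.5) (y axis) over 37 DNA replication genes, 25 mitosis genes, 16 epithelial markers and 12 stromal markers in each library. Points are libraries numbered by replicate and bars show mean ± SD (n = 4). Erbb3d/d replicates 3 and 4 are the highest libraries in the first 3 panels and the lowest in the stromal panel.

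The promoters of the members were read for sequence features that the choice of genes did not use. RefSeq windows from 250 bases before to 50 bases after a transcription start (GRCm38) were found for 30 of the 37 members. E2F factors bind sites of the form TTTCCCGC, TTTCGCGC, TTTGCCGC or TTTGGCGC, and at least 1 of these 4 words stood on either strand in 13 of the 30 members (43.3%), beside 2.60% of the 27025 genes in the table. Those 13 members were Orc1, Cdc6, Cdt1, Mcm3, Mcm5, Mcm6, Mcm7, Pola1, Pole2, Pold1, Rfc3, Lig1 and Uhrf1. They held 19 matches, 11 of which began before the start and 8 at or after it, and some matches on opposite strands shared bases. The CCAAT box (CCAAT, either strand) was found in 18 of 30 members (60%), beside 41.1% of genes. TTTGAA, a word of the CHR element of late cell cycle genes, was found in 3 of 30 members (10%), beside 20.2% of genes. For comparison, mitosis genes had an E2F word in 1 of 21 genes with a window (4.76%), TTTGAA in 16 (76.2%) and CCAAT in 18 (85.7%). A match describes letters and not a bound site.

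Stretches around 1 E2F match are shown for members described below by their values and for 4 subunits of the helicase ring, each read on the strand on which the word begins with TTT, with the word in capitals and up to 10 bases to either side.
Cdc6 (chr11:98908003-98908030, minus strand): ccccaggcgaTTTCCCGCtctccaccgg
Uhrf1 (chr17:56304118-56304145, plus strand): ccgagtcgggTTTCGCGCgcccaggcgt
Rfc3 (chr5:151651191-151651218, plus strand): acagtagagtTTTCCCGCgagcgcgaaa
Mcm3 (chr1:20820276-20820303, plus strand): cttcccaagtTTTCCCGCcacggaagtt
Mcm5 (chr8:75109350-75109377, minus strand): ggctggacgtTTTGGCGCgaaagttctt
Mcm6 (chr1:128359735-128359762, minus strand): attggacgggTTTGGCGCgaagtagctc
Mcm7 (chr5:138171850-138171877, minus strand): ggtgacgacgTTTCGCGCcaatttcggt
Positions are given for the most upstream base of each word on the strand of the gene, counted from the start as 0. They are -138 for Cdc6, -185 for Uhrf1 (window of the downstream of its 2 starts) and 0 for Rfc3. For the helicase subunits they are 19 for Mcm3, -149 for Mcm5, -47 for Mcm6 and 16 for Mcm7. The GENCODE M21 annotation begins Cdc6 at 98907801, before the RefSeq start used here. By that annotation the Cdc6 match lies inside the gene.

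The 250 bases before the start are shown for Mcm6, which had the most E2F matches, and for Mcm10, which had CCAAT boxes and no E2F word, with E2F and CCAAT words on either strand in capitals. The longest run of capitals in Mcm6 holds 2 E2F words that overlap on opposite strands.
Mcm6 (chr1:128359706-128359955, minus strand): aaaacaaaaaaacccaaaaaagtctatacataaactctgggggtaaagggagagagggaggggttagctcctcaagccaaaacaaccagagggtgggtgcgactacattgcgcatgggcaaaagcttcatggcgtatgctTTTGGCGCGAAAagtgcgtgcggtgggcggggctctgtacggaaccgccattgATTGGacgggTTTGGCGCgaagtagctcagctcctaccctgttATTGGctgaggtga
Mcm10 (chr2:5012792-5013041, minus strand): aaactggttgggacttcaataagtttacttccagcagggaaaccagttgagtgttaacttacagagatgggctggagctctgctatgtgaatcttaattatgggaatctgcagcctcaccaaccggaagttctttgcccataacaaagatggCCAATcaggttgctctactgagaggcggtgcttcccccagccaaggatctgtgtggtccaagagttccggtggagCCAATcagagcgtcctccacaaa
Members with and without an E2F word did not stand apart in fold change. The median log2 fold change was 0.15 over the 13 tested members with a word and 0.16 over the 16 tested members that had a window without it, and the highest values of the sets belonged to Cdc6 (1.14, with) and Mcm10 (0.85, without).

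Origin licensing genes held the member with the highest log2 fold change, Cdc6, the ATPase that helps load the helicase. Cdc6 (GRCm38 chromosome 11, 98907801 to 98923940, plus strand) had 5.26, 11.0, 5.81 and 6.90 CPM in the libraries labelled Erbb3f/f, replicates 1 to 4, and 13.3, 8.05, 23.4 and 18.7 CPM in those labelled Erbb3d/d, replicates 1 to 4. Only Erbb3d/d replicate 2 lay below the highest library of the other label. The means were 7.24 ± 2.59 and 15.9 ± 6.65 CPM (SD, n = 4 each), or 1.14 as log2 fold change (SE 0.34). The adjusted p was 0.296 in edgeR and 0.0575 in DESeq2. A two-sided exact permutation test gave p = 0.0571, which cannot go below 0.0286 here. Its level varied 4.45-fold between the lowest and the highest library, the widest range of the members. Orc6, a subunit of the origin recognition complex, was low where Cdc6 was highest, with 22.9, 22.6, 21.8 and 25.6 CPM under the Erbb3f/f label and 24.2, 25.9, 20.6 and 19.0 CPM under the Erbb3d/d label. Erbb3d/d replicates 3 and 4 were the lowest libraries for Orc6, and its values spanned 1.37-fold (log2 fold change -0.05, SE 0.14). Orc6 shares exonic bases with Vps35 on the other strand, and reads there cannot be assigned without strand. Orc1, the large ATPase subunit of the same complex, had 3.17 to 7.44 CPM over all libraries and means of 5.45 ± 1.79 and 5.43 ± 1.30 CPM (SD, n = 4 each). Cdt1, the partner of Cdc6 in loading, had 25.9 and 24.3 CPM in Erbb3d/d replicates 3 and 4 and 12.7 to 22.5 CPM in the other libraries (log2 fold change 0.03, SE 0.22).

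**Figure D4:**
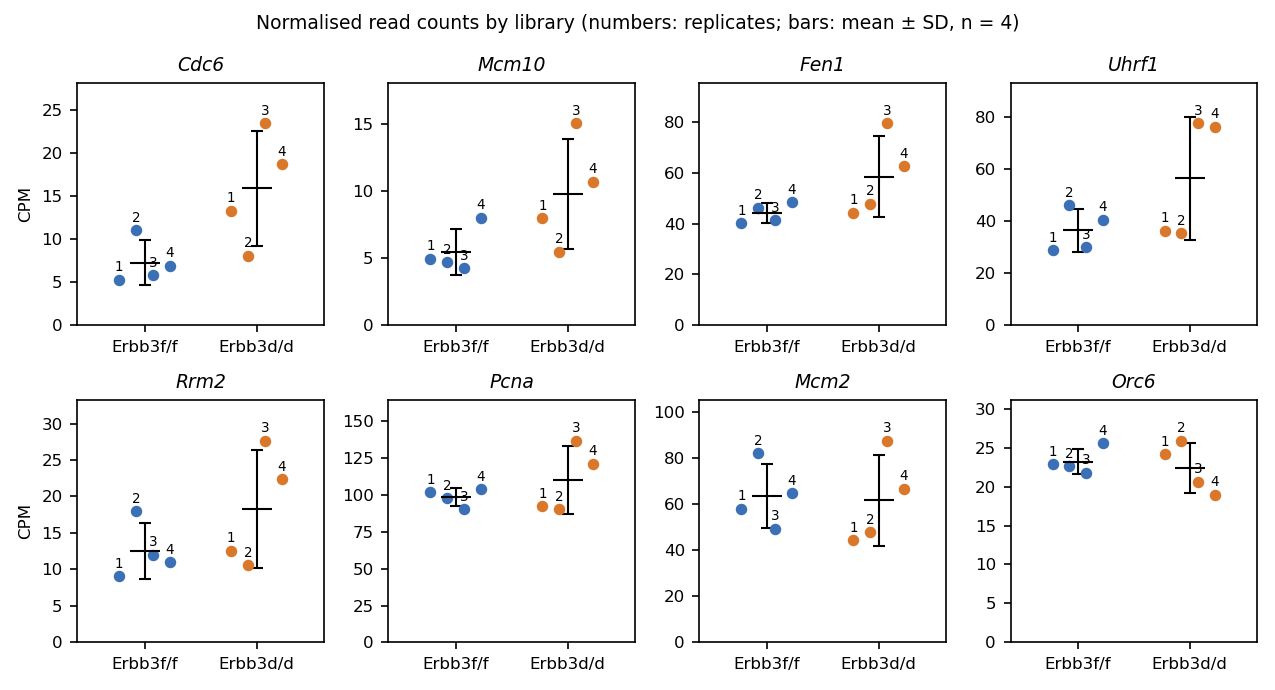
CPM (y axis, from 0) of Cdc6, Mcm10, Fen1, Uhrf1, Rrm2, Pcna, Mcm2 and Orc6 in each library, numbered by replicate, with mean ± SD (n = 4). The labels overlap for every gene shown. Erbb3d/d replicates 3 and 4 are highest except for Mcm2, where an Erbb3f/f library lies between them, and Orc6, where they are lowest.

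The 6 subunits of the helicase ring had log2 fold changes from -0.13 for Mcm7 to 0.22 for Mcm6, and 0 of 6 passed the test. Mcm2 had 58.2, 82.2, 49.4 and 64.8 CPM in the libraries labelled Erbb3f/f and 44.5, 47.9, 87.7 and 66.9 CPM in those labelled Erbb3d/d. Replicates 1 and 2 of the Erbb3d/d label were the lowest 2 of the 8 and replicate 3 the highest, which left a log2 fold change of -0.04 (SE 0.23). Mcm6 had 37.6, 40.8, 27.2 and 33.5 CPM under the Erbb3f/f label and 35.1, 33.9, 47.8 and 44.2 CPM under the Erbb3d/d label, with Erbb3d/d replicates 3 and 4 again above the rest (log2 fold change 0.22, SE 0.16, edgeR adjusted p = 0.626). Mcm3, Mcm4 and Mcm5 were also highest in Erbb3d/d replicate 3, at 59.3, 78.0 and 38.1 CPM. Mcm3 and Mcm5 were lowest in Erbb3f/f replicate 3, at 28.0 and 13.98 CPM, as was Mcm4 at 42.3 CPM. Mcm7 varied least of the ring, 1.40-fold over the libraries, and its means were 41.4 ± 6.30 and 37.9 ± 3.26 CPM (SD, n = 4 each). Mcm7 overlaps exons of Ap4m1 and Cops6 on the other strand and holds microRNA genes in its own sequence, so its count is less certain.

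Per kilobase of transcript, the subunits of the ring were unequal. In the libraries labelled Erbb3f/f, Mcm2 had 18.9 ± 4.12, Mcm4 15.97 ± 3.09, Mcm7 13.99 ± 2.13, Mcm3 13.0 ± 2.89, Mcm6 7.95 ± 1.35 and Mcm5 7.501 ± 2.32 CPM per kilobase (SD, n = 4). The 4 upper subunits overlapped within their SD, as did the lower pair, Mcm6 and Mcm5, but all were read in the same libraries. Mcm2 stood above Mcm4, Mcm7 and Mcm3 in each library labelled Erbb3f/f, while Mcm6 and Mcm5 changed order between libraries. The order under the Erbb3d/d label was Mcm2, Mcm4, Mcm3, Mcm7, Mcm6 and Mcm5, with 18.3 ± 5.90 CPM per kilobase for Mcm2 and 8.27 ± 2.69 for Mcm5 (SD, n = 4). The lengths come from GENCODE M21 transcripts tied to RefSeq mRNAs, and the annotation used for counting is not given in the sources used here, so levels between genes are approximate.

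**Figure D5:**
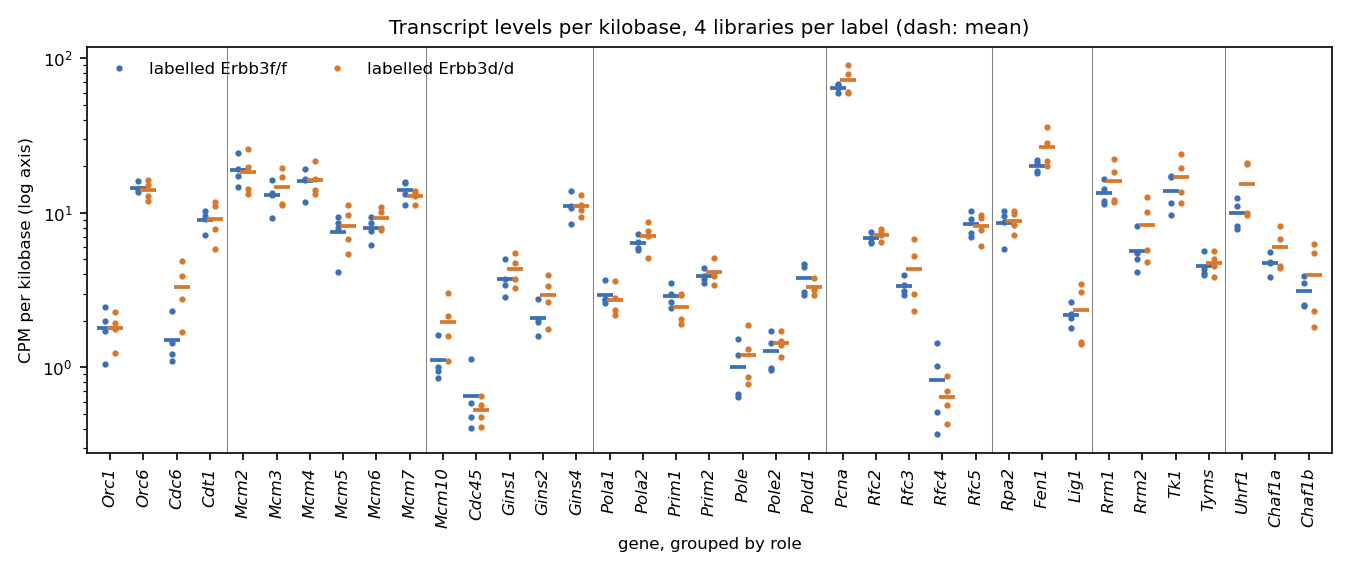
CPM per kilobase of transcript (y axis, log axis) of the 37 DNA replication genes (x axis, grouped by role). Points are libraries labelled Erbb3f/f (blue) and Erbb3d/d (orange), and dashes are means of 4. Pcna is highest and Cdc45 and Rfc4 are lowest under both labels.

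Among the genes that activate the helicase, Mcm10 acts at the firing origin and with polymerase alpha. Mcm10 (chromosome 2, 4989714 to 5012791, minus strand) had 4.97, 4.71, 4.24 and 8.03 CPM under the Erbb3f/f label and 7.96, 5.48, 15.05 and 10.7 CPM under the Erbb3d/d label. The highest library labelled Erbb3f/f, replicate 4, exceeded Erbb3d/d replicates 1 and 2. This gave 0.85 as log2 fold change (SE 0.33), an edgeR adjusted p of 0.372 and an exact permutation p of 0.0857. Gins2, a subunit of the GINS complex, had 7.70, 7.96, 6.21 and 10.7 CPM under the Erbb3f/f label and 10.3, 6.88, 15.4 and 13.2 CPM under the Erbb3d/d label (log2 fold change 0.50, SE 0.27, edgeR adjusted p = 0.506). It shares a large stretch of exon with Gse1 on the other strand. Gins4, of the same complex, showed no such shift, with 18.6, 14.5, 11.5 and 15.04 CPM against 17.7, 12.6, 15.1 and 14.1 CPM, and means of 14.9 ± 2.93 and 14.9 ± 2.14 CPM (SD, n = 4 each). Per kilobase, Gins4 was the most abundant of this group, at 11.0 ± 2.17 under the Erbb3f/f label, beside 3.75 ± 0.903 for Gins1 and 2.09 ± 0.485 for Gins2 (SD, n = 4). The value for Gins2 is less certain because of its overlap with Gse1. Cdc45, the remaining part of the active helicase, rested on 9 to 23 reads per library and had the lowest log2 fold change, -0.29 (SE 0.45). It had 1.27, 2.41, 0.864 and 1.02 CPM under the Erbb3f/f label and 0.884, 1.40, 1.02 and 1.23 CPM under the Erbb3d/d label. Erbb3f/f replicate 2 stood above the other 7 libraries, and without that library the log2 fold change was 0.12.

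Of the 7 polymerase and primase subunits, 0 passed the test. Pola2, the regulatory subunit of polymerase alpha, had 20.9, 18.5, 16.4 and 17.1 CPM under the Erbb3f/f label and 21.8, 14.7, 24.9 and 20.3 CPM under the Erbb3d/d label (log2 fold change 0.17, SE 0.17). Erbb3d/d replicate 2 was its lowest library and replicate 3 its highest. Prim1, the catalytic primase subunit, had 4.19, 5.55, 4.71 and 3.84 CPM against 3.24, 3.03, 4.73 and 4.65 CPM, with Erbb3d/d replicates 1 and 2 lowest (log2 fold change -0.22, SE 0.27, edgeR adjusted p = 0.793). Pole, the catalytic subunit of polymerase epsilon, ranged 2.93-fold over the libraries, from 4.58 CPM in Erbb3f/f replicate 1 to 13.4 CPM in Erbb3d/d replicate 3. Prim2, the other primase subunit, ranged 1.49-fold. Over the 7 genes the log2 fold changes ran from -0.22 to 0.28, 4 above 0 and 3 below.

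Pcna, the sliding clamp, was the most abundant member. It had 102, 97.7, 90.1 and 104 CPM under the Erbb3f/f label and 92.2, 90.05, 137 and 121 CPM under the Erbb3d/d label, or 64.8 ± 3.97 and 72.5 ± 14.99 CPM per kilobase (SD, n = 4 each). The libraries labelled Erbb3f/f were close together, and Erbb3d/d replicates 3 and 4 stood above all of them (log2 fold change 0.16, SE 0.14, edgeR adjusted p = 0.674). Processed copies of Pcna are annotated in the genome, so part of its reads could be lost or shared. Rfc3, a subunit of the clamp loader, had 4.09, 4.503, 3.85 and 5.20 CPM against 3.93, 3.03, 6.93 and 8.86 CPM. Erbb3d/d replicate 2 was the lowest and replicate 4 the highest of the 8 libraries (log2 fold change 0.38, SE 0.34). Rfc2, of the same loader, ranged from 32.0 to 39.0 CPM, 1.22-fold, the narrowest range of the members, and shares exonic bases with Lat2 on the other strand. Rfc5 had a log2 fold change of -0.03 (SE 0.18). Rfc4 had 4 to 18 reads per library, was the member left out by the filter on low counts, and overlaps Eif4a2.

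Fen1 (chromosome 19, 10199132 to 10204169, minus strand), the nuclease that trims lagging-strand fragments, had 40.2, 46.3, 41.2 and 48.5 CPM in the libraries labelled Erbb3f/f and 44.2, 47.8, 79.4 and 62.6 CPM in those labelled Erbb3d/d. Again Erbb3d/d replicates 3 and 4 stood above all others, while replicates 1 and 2 lay within the range of the other label. Fen1 thus had 0.41 as log2 fold change (SE 0.17), an edgeR adjusted p of 0.410 and an exact permutation p of 0.143, and it shares exonic bases with Tmem258. Lig1, the ligase that seals the fragments, showed the same split more widely, with 5.11 and 5.02 CPM in Erbb3d/d replicates 1 and 2 and 12.1 and 10.9 CPM in replicates 3 and 4, around 6.33 to 9.32 CPM under the Erbb3f/f label. The mean difference was small (log2 fold change 0.12, SE 0.32). Rpa2, a subunit of the single strand binding protein, had 10.6 to 18.8 CPM over the 8 libraries and a log2 fold change of 0.06 (SE 0.20).

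Nucleotide supply genes all had a log2 fold change above 0, from 0.09 for Tyms to 0.56 for Rrm2, and 0 of the 4 passed the test. Rrm2, the regulated subunit of ribonucleotide reductase, had 9.06, 18.01, 12.02 and 11.0 CPM under the Erbb3f/f label and 12.6, 10.6, 27.7 and 22.4 CPM under the Erbb3d/d label. The highest library of the Erbb3f/f label exceeded 2 libraries of the Erbb3d/d label (SE 0.32, edgeR adjusted p = 0.532). Its partner Rrm1 had 56.7, 47.6, 45.6 and 66.3 CPM against 48.5, 47.2, 89.4 and 73.1 CPM, with a log2 fold change of 0.26 (SE 0.21). Per kilobase, Rrm1 stood at 13.5 ± 2.36 and Rrm2 at 5.71 ± 1.76 under the Erbb3f/f label, and at 16.2 ± 5.09 and 8.35 ± 3.68 under the Erbb3d/d label (SD, n = 4 each). Tk1, the thymidine kinase of dividing cells, had 16.8, 25.03, 13.98 and 24.4 CPM against 19.6, 16.7, 34.5 and 28.2 CPM (log2 fold change 0.31, SE 0.26). Erbb3d/d replicates 3 and 4 were again the highest libraries for Rrm1, Rrm2 and Tk1. Tyms, which makes thymidylate, ranged 1.47-fold.

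The 3 genes that copy chromatin had a median log2 fold change of 0.37, and 0 passed the test. Uhrf1, which brings maintenance DNA methylation to new strands, had 28.9, 46.1, 29.9 and 40.6 CPM in the libraries labelled Erbb3f/f and 36.4, 35.3, 77.5 and 76.2 CPM in those labelled Erbb3d/d. Replicates 1 and 2 of the Erbb3d/d label lay in the middle of the other label and replicates 3 and 4 well above it. Its log2 fold change was 0.64 (SE 0.30, edgeR adjusted p = 0.450), and -0.016 (SE 0.20) without those 2 libraries. Chaf1a, a subunit of the histone chaperone CAF-1, had 26.1, 31.0, 21.1 and 26.5 CPM against 24.96, 24.4, 45.5 and 37.7 CPM (log2 fold change 0.35, SE 0.21). Much of its annotated exon sequence lies opposite Ubxn6, so its count is uncertain. Chaf1b, the next subunit, had 4.42, 3.499, 10.6 and 12.1 CPM under the Erbb3d/d label and 4.77 to 7.54 CPM under the Erbb3f/f label (log2 fold change 0.37, SE 0.39).

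Replication genes outside the 37 were examined as well. A second list of 41 tested genes holds other origin, fork, nucleotide and chromatin genes. Of these, 0 were called by edgeR, as were 0% of all genes tested. At an unadjusted p under 0.05 in edgeR's test, 0 were higher, beside 6.64% of all genes tested, and 0 lower, beside 4.97%. Their median log2 fold change was 0.02, with 23 above 0 and 18 below, beside 48% of all genes tested above 0. On that list, 1 gene lay wholly below the Erbb3f/f label, beside 5.04% of all genes tested apart in either direction. The mean log2(CPM + 0.5) of that list was 4.12 to 4.29 under the Erbb3f/f label and 4.13, 4.07, 4.52 and 4.41 under the Erbb3d/d label, again highest in replicates 3 and 4. Of 17 regulators of S-phase entry, such as E2F factors, pocket proteins and E-type cyclins, 0 were called after adjustment. E2f2 was the single gene with an unadjusted p under 0.05, beside 6.64% of all genes tested that were higher. Another 1 of the 17 lay wholly below the Erbb3f/f label, beside the same 5.04% of genes apart in either direction. E2f2, an activating E2F factor, had 7.60, 16.2, 16.9 and 11.8 CPM against 16.7, 13.2, 31.4 and 23.6 CPM (log2 fold change 0.70, SE 0.31, edgeR adjusted p = 0.429). Its labels overlapped, and Erbb3d/d replicates 3 and 4 were its highest libraries.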

How the data were processed

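Gene expression was measured by sequencing of polyadenylated RNA in 8 libraries. The authors deposited 1 table of raw read counts per gene symbol for each library, with no normalization. HISAT2, SAMtools, HTSeq and StringTie and the builds mm10 and GRCm38 are named in the submitters' processing notes, and the libraries were non-directional per the labels' protocols. The annotation and the counting options are not given in the sources used here. The last 5 lines of each table name no gene. Genes held 27.0% to 29.1% of all entries. The lines without a gene (no feature 48.3% to 50.8%, not aligned 12.9% to 15.7%, low quality 3.66% to 4.39%, not unique 3.49% to 4.05%, ambiguous 0.147% to 0.166%) entered neither library sizes nor tests. Whether reads or pairs were counted is not given in the sources used here.

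The test was run in edgeR 4.0.16 (R 4.3.3): filterByExpr, TMM scaling and the robust quasi-likelihood test on the genotype label with all 8 libraries, adjusted by Benjamini-Hochberg over 14598 genes at 0.05. Log2 fold changes are Erbb3d/d over Erbb3f/f. SE is the log2 fold change divided by the square root of the test statistic. On simulated counts for this comparison (14452 genes), 14% of genes changed by 0.5 on the log2 scale and 62% of those changed by 1 were recovered. Exact permutation tests used the 70 assignments of libraries, on log2(CPM + 0.5). Alternatives were DESeq2 1.42.0, RLE and upper quartile scaling, no filter, the replicate number as a block, and leaving out libraries.

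Values in every library are given for the 12 members with the smallest p, the 2 highest and the 2 lowest fold changes, any member called or with labels that do not overlap, the member of each role with the highest level per kilobase, and genes of the 2 added replication and S-phase entry lists with unadjusted p under 0.05. Library values of other members, such as Lig1 and Chaf1b, were chosen after they were seen. The members and lists were chosen with earlier results of these data known. Of the immune list, 11 of 12 symbols matched. Positions and lengths came from GENCODE M21, and promoter windows from RefSeq, both on GRCm38.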

Additional observations from a re-analysis of the deposited data

Results flagged for a closer look

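Among 76 groups of 4 libraries, the 37 genes and their mean under each label, 1 held a value far from the others, where 3.8 would be expected by chance at 1 in 20. Pola1, the catalytic subunit of polymerase alpha, had 19.8 CPM in Erbb3f/f replicate 2, and the nearest library of that label had 14.7 CPM.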

How the results depend on the processing

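Over all genes, edgeR called 0 with all 8 libraries, DESeq2 called 258, the fit with the replicate block called 52, and leaving out 1 library gave 0 to 259, the highest without Erbb3d/d replicate 2. Members called ranged from 0 to 1 when 1 library was left out (Cdc6, without Erbb3d/d replicate 2), and members higher at an unadjusted p under 0.05 from 1 to 7. The median log2 fold change of the members then ran from 0.03 to 0.27 and the difference in their mean from 0.04 to 0.27. Members with labels that do not overlap ranged from 0 to 1 (Cdc6 without Erbb3f/f replicate 2 or Erbb3d/d replicate 2, Mcm10 without Erbb3f/f replicate 4). Erbb3d/d replicates 3 and 4 were a pair chosen because it was known to stand apart, and its removal had to lower the average fold change of the members. Without that pair, 0 members were higher and 1 was lower at an unadjusted p under 0.05, and 5 did not overlap. The median log2 fold change was then -0.14 and the difference in the mean -0.12. Of the genes named by the rule above, 9 changed sign there. Their log2 fold change became -0.016 for Uhrf1, -0.10 for Rrm2, -0.080 for Chaf1a, -0.0060 for Mcm6 and -0.17 for Rrm1. It became -0.11 for Pcna, -0.14 for Tk1, -0.33 for Rfc3 and 0.11 for Orc6. Members outside that rule also changed sign, such as Lig1 (to -0.60) and Chaf1b (to -0.59). These sign changes are a description.

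With 1 library left out, the log2 fold change ran from -0.47 to 0.12 for Cdc45, -0.12 to 0.026 for Orc6, -0.25 to 0.12 for Mcm2 and -0.11 to 0.14 for Gins4, and upper quartile scaling gave Gins4 -0.0032. The other 15 named genes kept their direction in those 8 fits, and all 19 kept it with DESeq2, RLE scaling, no filter and the replicate block, which changed no call among members. Same-numbered libraries deviated together with correlations of 0.24, 0.17, 0.0998 and 0.15. Correlations of libraries with unlike numbers were mostly negative and ran from -0.31 to 0.32. The highest was that of Erbb3f/f replicate 4 with Erbb3d/d replicate 3, so not every library correlated best with its own number. The labels do not say that the numbers pair libraries, and they were not taken to do so in the main test. These values do not settle whether they do.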
